A study of Mus with 14 samples.

Results

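The genes followed here were Elane, Prtn3, Ctsg, Prss57 and Mpo, which encode primary granule enzymes of neutrophils, and, grouped with them, Ms4a3. Their levels were measured in every mouse and marker-defined population of a single-cell data set of mouse bone marrow. The genes were taken by name, 6 of the 32285 genes listed in each of the 14 count matrices, with no threshold on a measured value. The working name for the set was primary granule protease genes. It held for 4 of the 6, since Elane, Prtn3, Ctsg and Prss57 encode serine proteases, whereas Mpo encodes a peroxidase and Ms4a3 a membrane protein.

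Primary granules, also called azurophil granules, are the first granules that a neutrophil precursor makes, at the promyelocyte stage. They store active serine proteases and myeloperoxidase for the killing of engulfed microbes. Their genes are known to be transcribed in progenitors of granulocytes and monocytes and to be shut off when the genes of the secondary granules (Ltf, Camp, Ngp) come on, so that mature neutrophils carry the proteins with little of the mRNA. Monocytes hold smaller amounts of the same enzymes.

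Each library came from 1 mouse. The donor cells (CD45.2+) were first transplanted with CD45.1+ competitor marrow into aged, irradiated CD45.1+ primary recipients, which received poly(I:C), the inducer of the interferon-responsive Mx-Cre recombinase, 1 month later. Whole marrow of these mice then went into aged, irradiated secondary recipients, and Lin-Kit+CD45.2+ cells were sorted from those after 20 weeks. These steps were shared by all 4 groups: MxCre with 3 mice, Dnmt3a with 4 mice, Dnmt3a;Tnfr1KO with 3 mice, and Dnmt3a;Tnfr2KO with 4 mice. The labels name the recombinase for the control group and the altered genes for the others. Dnmt3a encodes a DNA methyltransferase, and Tnfr1 and Tnfr2 are receptors of the cytokine TNF alpha, with the gene symbols Tnfrsf1a and Tnfrsf1b. The labels call the mice of a group biological replicates but do not say which primary recipient supplied which mouse, so mice may share a donor, and p-values then cover only the spread between these mice. The question behind the groups was what mutant Dnmt3a does to these cells and how each receptor bears on it. The design cannot tell apart fewer cells of a type and less RNA per cell in values summed over all cells, and each gene was therefore also measured within populations.

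After filtering, 66895 cells remained, 1924 to 7265 per library, with a median of 10677 to 39086 unique molecular identifiers (UMIs, each standing for 1 captured mRNA molecule) per cell. Dnmt3a replicate 1 stood apart, with 26.5% of its barcodes kept against 63.2% to 91.6% in the other libraries. Pairs of libraries shared 2 to 23 cell barcodes. Among the targeted genes, Tnfrsf1b was 4.76 ± 0.642 CPM (UMIs per 1000000 UMIs of the population, mean ± SD, n = 4) in Dnmt3a;Tnfr2KO against 14.96 ± 1.79 (n = 4) in Dnmt3a (edgeR quasi-likelihood test, adjusted p = 0.000554). Tnfrsf1a was 36.2 ± 2.61 (n = 3) in the libraries labelled Dnmt3a;Tnfr1KO against 47.1 ± 8.41 in Dnmt3a, a difference that did not pass (edgeR adjusted p = 0.602). Dnmt3a itself was 33.4 ± 4.22 in Dnmt3a against 25.3 ± 4.89 in MxCre (edgeR adjusted p = 0.0836). It was lower than in Dnmt3a in the libraries labelled Dnmt3a;Tnfr1KO, at 20.8 ± 1.80 (log2 fold change -0.48 ± 0.10 SE, edgeR adjusted p = 0.0481), and was at 22.2 ± 0.794 in Dnmt3a;Tnfr2KO (-0.37 ± 0.09, edgeR adjusted p = 0.0590). The deleted parts are not given in the sources used here, and tags of the 3' end can lie outside them, so these levels do not check the labels.

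Prss57, Prtn3 and Elane lie together on chromosome 10 of GRCm38, at 79781474 to 79794684, 79879667 to 79883174 and 79886312 to 79888216. Prtn3 and Elane are 3137 bp apart, and 2636 bp separate Elane from Cfd, which encodes complement factor D, a serine protease that is no member of the set. Mpo lies on chromosome 11 (87793784 to 87804412), Ctsg on chromosome 14 (56099885 to 56102574) and Ms4a3 on chromosome 19 (11629499 to 11640851). All positions are whole genes as annotated by RefSeq in GRCm38.p6. A UMI is counted once per molecule from its 3' end, so levels of different genes can be compared without a correction for gene length.

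The 6 genes followed one course through the granulocyte stages. They were low in Hlf-positive cells, high in Gfi1-positive cells and, with the gates on whole cells, highest in Cebpe-positive cells, and lower again in cells with secondary granule transcripts. Populations were set by UMIs of marker genes that included no member: Hlf marks stem cells and early progenitors, and Gfi1 and Cebpe encode transcription factors of granulocyte progenitors. Elane (neutrophil elastase) was at 338 ± 251 CPM (SD, n = 14 mice) in Hlf-positive cells, 6302 ± 1772 (n = 10) in Gfi1-positive cells, 10706 ± 1556 (n = 14) in Cebpe-positive cells and 3045 ± 2632 (n = 11) in secondary-granule cells. Mpo, the enzyme that makes hypochlorous acid, was at 940 ± 323, 5749 ± 966, 7631 ± 989 and 1168 ± 1157 CPM at the same stages. Prss57, the weakest of the proteases, was at 45.6 ± 24.99, 257 ± 52.7, 381 ± 41.6 and 112 ± 80.8 CPM.

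**Figure D1:**
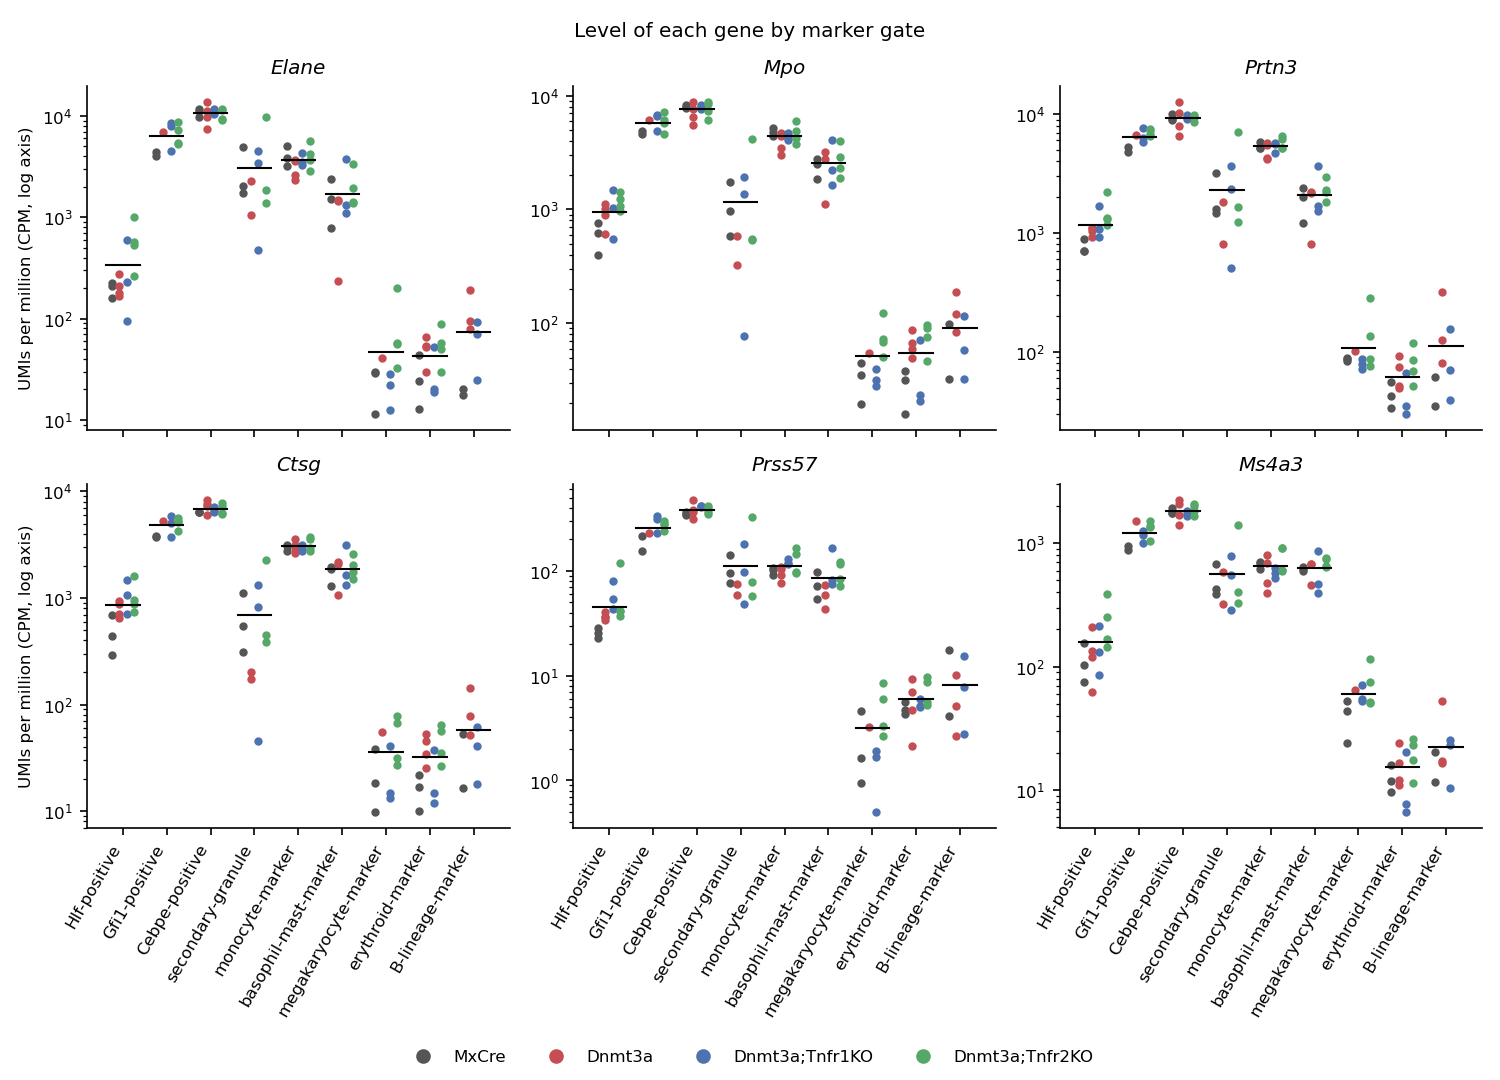
Level of each gene (CPM, log axis) in 9 marker-defined populations; each point is 1 mouse, coloured by group, and the bar is the mean over mice. Cebpe-positive cells hold the highest means (10706 CPM for Elane) and erythroid- and megakaryocyte-marker cells the lowest or near lowest; the 1 value of 0, for Prss57 in megakaryocyte-marker cells, is drawn at the bottom of its axis.

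Within a mouse, Hlf-positive cells were below Gfi1-positive cells for each member in 10 of 10 mice. The difference in log2(CPM + 1) was -4.26 ± 0.86 for Elane and -2.44 to -2.85 for the other 5 members (exact sign-flip permutation test, two-sided, adjusted p = 0.00195 over 42 tests, the smallest that 10 mice allow before adjustment). Elane thus had the largest mean difference between these stages. Gfi1-positive cells were below Cebpe-positive cells by 0.45 (Mpo) to 0.81 (Elane) on the log2 scale in 10 of 10 mice (same test, adjusted p = 0.00195), but the order turned when cells were gated after thinning to 5000 UMIs. All 6 genes were then higher in Gfi1-positive cells, from 0.0066 (Mpo) to 0.14 (Prtn3), and all but Mpo passed the test (exact permutation test, adjusted p from 0.000197 to 0.0199). With the gate minimums doubled, Ctsg no longer passed (log2 difference -0.06, exact permutation test, adjusted p = 0.0698). The fall from Cebpe-positive to secondary-granule cells was seen in 11 of 11 mice for every member and was largest for Ctsg (cathepsin G), at 3.96 ± 1.63, and Mpo, at 3.38 ± 1.52, and smallest for Ms4a3, at 1.91 ± 0.66 (adjusted p = 0.00137, exact permutation test).

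Grouping the Cebpe-positive and secondary-granule cells by their summed Ltf, Camp and Ngp level gave the course of the transcripts in finer steps, as a description of cells chosen by those genes. In cells under 1000 CPM of the 3 genes (4815 cells, 14 mice), Mpo was at 7641 ± 995 CPM and Ctsg at 6866 ± 709. In cells from 1000 to 100000 CPM (621 cells, 9 mice) they were at 1688 ± 1450 and 967 ± 918. In cells of at least 100000 CPM (624 cells, 10 mice) they were at 50.1 ± 22.0 and 32.0 ± 15.6, in the range of erythroid-marker cells. Elane was at 10753 ± 1566, 5031 ± 3916 and 187 ± 79.9 CPM in the 3 bins, and Prtn3 (proteinase 3) at 9367 ± 1366, 3617 ± 2363 and 222 ± 64.4. Ms4a3 had the highest mean of the 6 in the last bin, 241 ± 35.4 CPM, after 1839 ± 222 in the first. Prss57 was at 382 ± 41.6, 168 ± 124 and 38.97 ± 6.49 CPM. Over the same bins Cebpe went the other way, from 197 ± 22.8 to 569 ± 73.7 and 722 ± 74.9 CPM.

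Monocyte-marker cells (positive for Ly86, Csf1r, Ms4a6c, Klf4 or Ccr2 transcripts) held each gene at a lower level than Cebpe-positive cells in 14 of 14 mice. The gap was widest for Prss57, with 111 ± 23.6 CPM against 381 ± 41.6 (log2 difference 1.79 ± 0.25), for Elane, with 3704 ± 886 CPM (1.55 ± 0.25), and for Ms4a3, with 653 ± 150 CPM (1.52 ± 0.21). It was narrowest for Mpo, with 4407 ± 738 CPM (0.80 ± 0.12), and Prtn3, with 5344 ± 661 CPM (0.80 ± 0.16). Ctsg lay between, with 3086 ± 340 CPM (1.15 ± 0.13; exact permutation test, adjusted p = 0.000427 for all 6).

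Basophil-mast-marker cells also carried the transcripts, from 85.6 ± 33.1 CPM of Prss57 to 2551 ± 870 CPM of Mpo (n = 13), and were above erythroid-marker cells for each gene in 13 of 13 mice (log2 difference 3.60 to 6.01, exact permutation test, adjusted p = 0.00057). That gate included Hdc, which encodes histidine decarboxylase and was at 40.3 CPM in Cebpe-positive cells, so cells could meet both gates and were then counted under several gates. Of those cells, 4320 were in the Cebpe gate alone once Hdc was left out. Such cells of several gates, 28.8% of all kept cells, held 59.2% of the members' UMIs (36.1% to 83.1% per mouse), Cebpe-positive cells 16.6%, monocyte-marker cells 15.8%, cells of no gate 3.20% and Hlf-positive cells 2.30%. With Hdc left out, an alternative chosen after seeing the data, Cebpe-positive cells held 37.5% and cells of several gates 34.4%.

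Erythroid-marker cells (with Klf1, Ermap, Aqp1 and Epor among the markers) do not express these genes as far as is known, and were taken as the background level, to which free RNA in the droplets can add. There, Elane was at 42.9 ± 21.2 CPM, Mpo at 55.4 ± 27.1, Prtn3 at 60.9 ± 24.99, Ctsg at 32.4 ± 17.3, Ms4a3 at 15.3 ± 6.30 and Prss57 at 5.93 ± 2.11 (n = 14). B-lineage-marker cells (n = 8) had 22.2 ± 13.5 CPM of Ms4a3 and 111 ± 94.2 of Prtn3. Megakaryocyte-marker cells (n = 11) had 47.3 ± 53.0 CPM of Elane, 35.8 ± 22.7 of Ctsg, 108 ± 61.5 of Prtn3 and 59.6 ± 23.1 of Ms4a3. These populations were not tested against erythroid-marker cells. Ms4a3 in megakaryocyte-marker cells was lowest at 23.9 CPM (MxCre replicate 3) and highest at 115 (Dnmt3a;Tnfr2KO replicate 3).

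The balance among the 6 genes was not the same in each population. In Cebpe-positive cells, Elane made up 29.0 ± 1.53% (SD, n = 14) of the 6 genes' UMIs. In Hlf-positive cells it made up 8.91 ± 3.20%, and in those that also had a Procr UMI 5.004 ± 2.79% (n = 13), while Prtn3 made up 33.8% and 46.3%. In erythroid-marker cells Elane was 19.8% of the members' UMIs. Prss57 was 3.23% and Ms4a3 7.47% in these cells, against 0.943% and 4.82% in all kept cells and 0.846% and 3.86% in barcodes under 1000 UMIs. The population taken as background thus had a balance of its own, and the source of that balance was not tested. Megakaryocyte-marker cells stood out by Ms4a3, 21.0% of the members' UMIs against 3.75% to 8.95% in the other populations of the make-up plot.

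**Figure D2:**
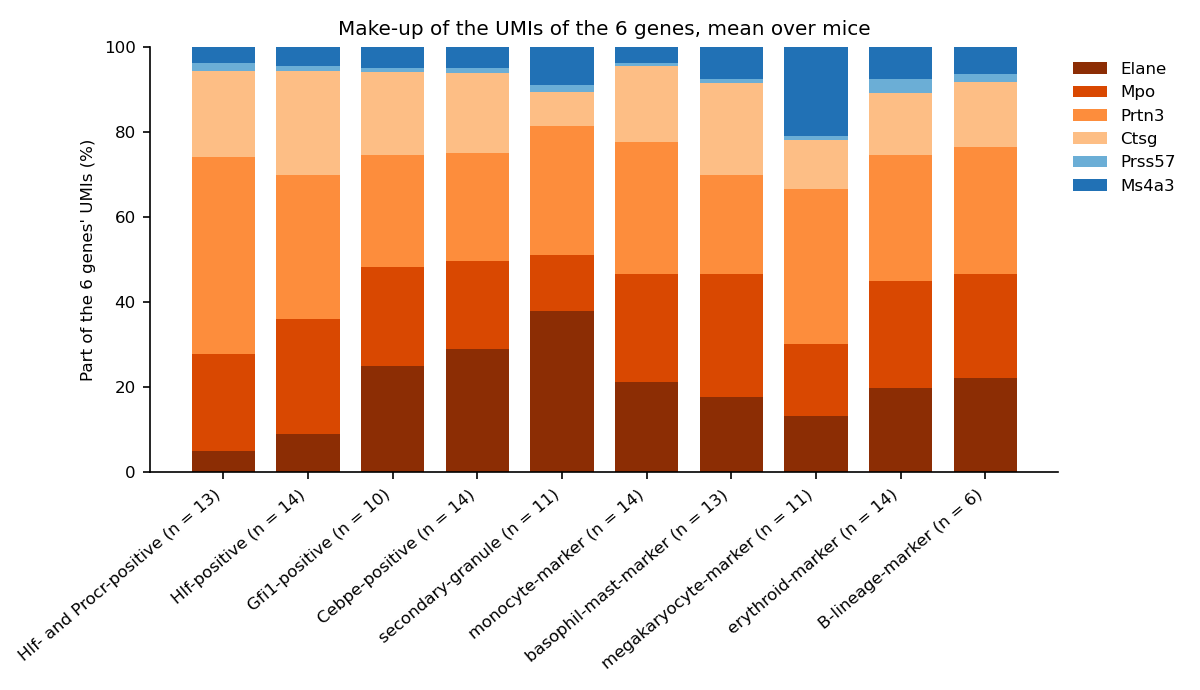
Mean make-up of the 6 genes' UMIs (percent, stacked to 100) in each population, with the number of mice under each bar; only mice with at least 50 such UMIs in a population were used. The Elane part grows from 5.004% in cells with both Hlf and Procr UMIs to 29.0% in Cebpe-positive cells, and the Ms4a3 part is largest in megakaryocyte-marker cells.

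Hlf-positive cells numbered 10061 of the 66895 kept cells, of which 3524 passed with a single Hlf UMI. This population holds only cells that met no other gate, Gfi1 aside. Cells with Hlf UMIs that met another gate, such as that of Cebpe or of the monocyte markers, were counted under several gates. Over all cells of several gates Hlf was at 21.7 CPM, against 196 in the Hlf-positive cells. The levels given here for Hlf-positive cells leave such cells out. Markers of early cells were high in the Hlf-positive cells: Procr, a stem cell surface receptor, was at 12.1 CPM against 0.37 in Cebpe-positive cells, Mecom at 49.3 against 2.17 and Ly6a at 35.2 against 1.74. Cebpe was at 3.22 CPM against 201, which follows in part from the gates, since a cell with 2 or more Cebpe UMIs was not counted as Hlf-positive. Levels of the 6 genes there were far under those of granulocyte progenitors and above that of erythroid-marker cells in 14 of 14 mice. The log2 difference from erythroid-marker cells was 2.83 ± 0.69 for Elane, 4.26 ± 0.44 for Prtn3, 4.16 ± 0.55 for Mpo, 4.77 ± 0.69 for Ctsg, 2.67 ± 0.60 for Prss57 and 3.24 ± 0.48 for Ms4a3 (exact permutation test, adjusted p = 0.000427). Against megakaryocyte-marker cells the differences were 1.40 ± 0.44 (Ms4a3) to 4.72 ± 0.70 (Ctsg), in 11 of 11 mice (adjusted p = 0.00137, exact permutation test).

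To compare shares of cells at 1 depth, each cell was thinned to 5000 UMIs, which used 9854 Hlf-positive cells and left out 207. Prtn3 was then found in 89.1 ± 5.14% of Hlf-positive cells (n = 14) against 27.8 ± 10.51% of erythroid-marker cells, Mpo in 61.6 ± 14.3% against 22.9 ± 8.88%, and Ctsg in 52.7 ± 15.5% against 14.5 ± 7.69%. The margin was smallest for Elane, 27.8 ± 12.2% against 18.9 ± 8.72%, so that most of the Elane share was matched by the share in erythroid-marker cells. Prss57 was found in 15.5 ± 6.28% against 3.12 ± 1.30% and Ms4a3 in 29.5 ± 9.97% against 8.34 ± 3.54%. For each member the share was higher in Hlf-positive cells in 14 of 14 mice (exact sign-flip permutation test, p = 0.000122 for each, also after adjustment over 6 tests, the smallest that 14 mice allow). Without thinning, the shares were 57.2% for Elane, 78.7% for Mpo, 97.5% for Prtn3, 69.0% for Ctsg, 38.8% for Prss57 and 50.5% for Ms4a3, against 49.6%, 55.1%, 62.1%, 39.5%, 11.1% and 21.8% in erythroid-marker cells.

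**Figure D3:**
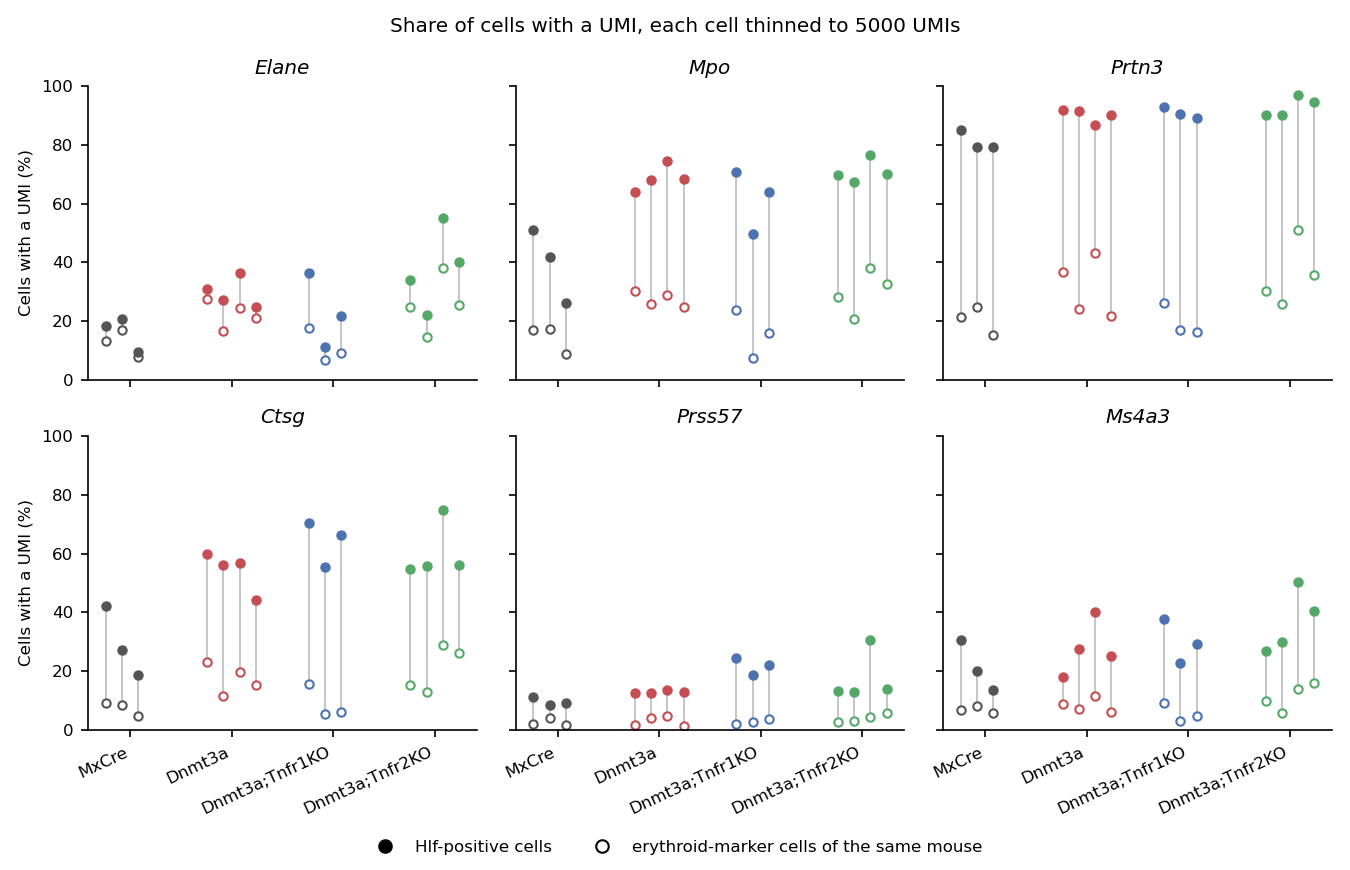
Percent of cells with at least 1 UMI of each gene after thinning to 5000 UMIs, by mouse; filled points are Hlf-positive cells, open points erythroid-marker cells of the same mouse, joined by a line. Filled points lie above open ones in all 14 mice, by most for Prtn3 and by least for Elane, and the open points also differ between mice.

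Most Hlf-positive cells held UMIs of some of the 6 genes but not of all, after thinning. In 15.4% of the cells (3.80% to 41.9% per mouse, n = 14) Prtn3 was the only one of the 6 detected. For Elane, the 10% of cells with most of its UMIs held 84.3 ± 7.91% of its thinned UMIs (72.1% to 100% per mouse), so its level in this population comes mostly from a minority of the cells. The same value was 77.3% for Prss57, 64.5% for Ms4a3, 53.6% for Ctsg, 53.3% for Mpo and 37.0% for Prtn3. It is high for any gene found in few cells: in MxCre replicate 3, with 100% for Elane, 9.59% of cells had an Elane UMI. None of the 6 was detected in 4.45% of cells (0.380% to 13.2%) and all 6 in 4.25% (1.01% to 13.5%). The median cell held 7.14 UMIs of the 6 genes after thinning, as the mean of the mouse medians, and 5.58% of cells held 50 or more.

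Among the 1470 Hlf-positive cells that also had a Procr UMI, a subset chosen after seeing the data, shares were taken in the 13 mice with enough such cells. Prtn3 was found in 89.8 ± 5.73% of thinned cells, Mpo in 44.9 ± 14.2%, Ctsg in 38.2 ± 16.8%, Elane in 25.8 ± 14.3%, Ms4a3 in 18.4 ± 12.2% and Prss57 in 12.4 ± 6.08%. These were not tested against the shares in all Hlf-positive cells, which include the subset. Each share was above that of the erythroid-marker cells, in 13 of 13 mice for Mpo, Prtn3, Ctsg and Prss57 and in 12 of 13 for Elane and Ms4a3 (exact permutation test, adjusted p = 0.000366 and 0.00122). Levels were 811 ± 271 CPM for Prtn3 and 105 ± 103 for Elane.

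Across the 4 groups, the 6 genes summed to 13898 ± 3514 CPM in all kept cells of MxCre mice (n = 3), 16387 ± 4019 in Dnmt3a (n = 4), 18502 ± 4950 in mice labelled Dnmt3a;Tnfr1KO (n = 3) and 19643 ± 3965 in Dnmt3a;Tnfr2KO (n = 4). Elane was at 3770, 4973 and 2487 CPM in the MxCre mice and at 2682, 3304, 4944 and 4695 in the Dnmt3a mice. It was at 6429, 3377 and 4676 in mice labelled Dnmt3a;Tnfr1KO and at 5234, 3273, 5120 and 6371 in Dnmt3a;Tnfr2KO. The ranges of all 6 genes overlapped in each of the 4 comparisons. These were Dnmt3a against MxCre, Dnmt3a;Tnfr1KO and Dnmt3a;Tnfr2KO each against Dnmt3a, and Dnmt3a;Tnfr2KO against Dnmt3a;Tnfr1KO. In the same samples 18.2%, 2.87%, 1.51% and 1.86% of 7490 genes of at least 10 CPM were without overlap and higher in the first group of each comparison. Lower without overlap were 5.02%, 21.9%, 17.2% and 1.03%. Ctsg came closest to separating, with 2552, 2797 and 1869 CPM in MxCre against 2697, 3148, 4140 and 3408 in Dnmt3a. Prss57 was at 123, 150 and 98.7 CPM in MxCre and at 112, 135, 184 and 165 in Dnmt3a.

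**Figure D4:**
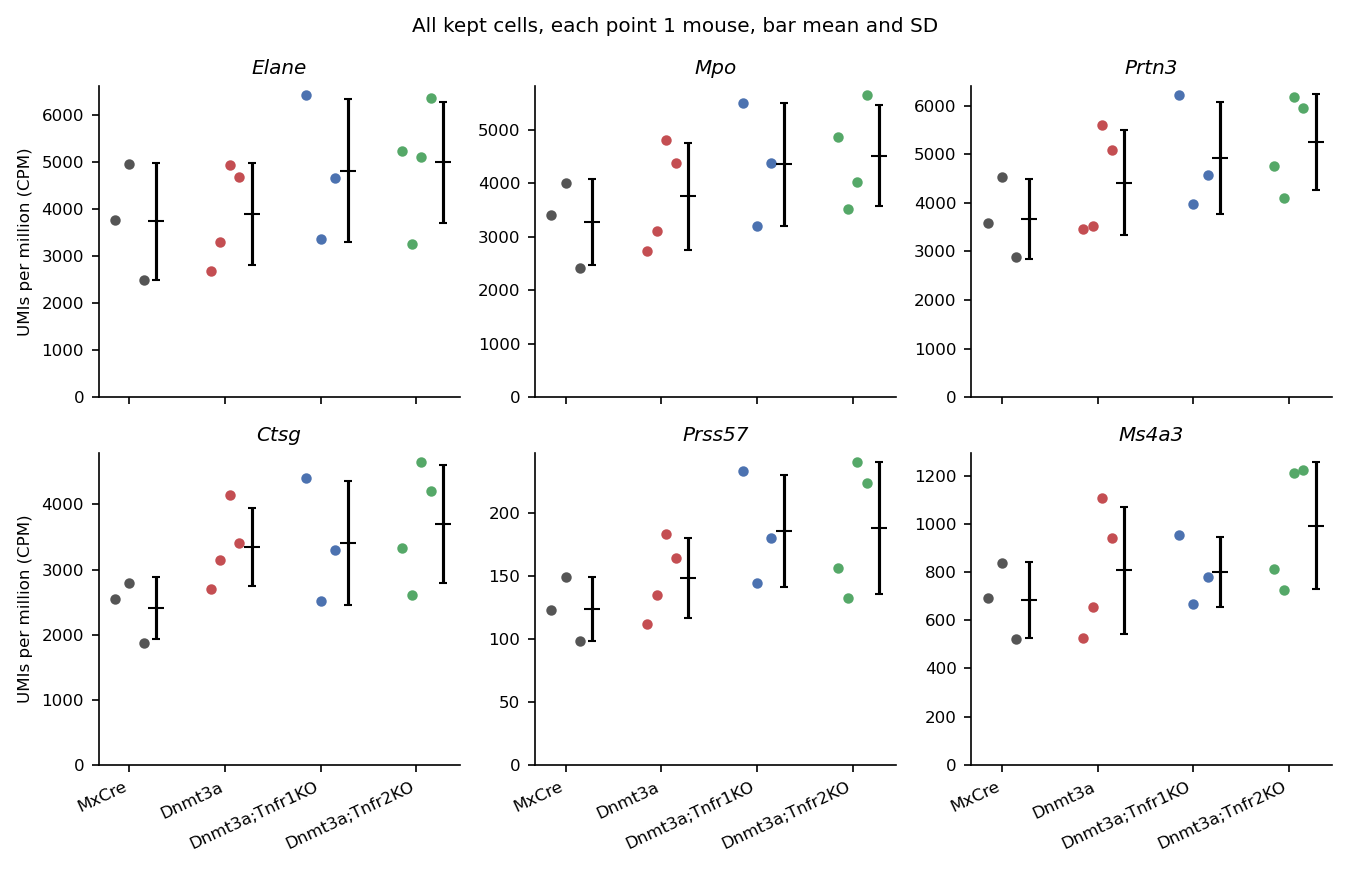
Level of each gene (CPM) over all kept cells of each mouse, by group; the bar is the group mean and the whisker the SD. All groups overlap for all 6 genes.

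Over all kept cells, edgeR called 0 of the 6 genes (adjusted p under 0.05) in each of the 4 comparisons. None had an unadjusted p under 0.05, where 23.8%, 19.9%, 23.1% and 3.97% of all genes tested did in the 4 comparisons, and DESeq2 called 0 as well. In the same fits, 2.48% of 15621 genes were called for Dnmt3a against MxCre, 0.544% for Dnmt3a;Tnfr1KO against Dnmt3a, 0.979% for Dnmt3a;Tnfr2KO against Dnmt3a and 0.205% for the 2 knockout groups against each other. The first 3 comparisons share the Dnmt3a mice, so their values are not independent. For Dnmt3a against MxCre, the log2 fold changes ran from -0.03 ± 0.33 (SE) for Elane to 0.39 for Ctsg (adjusted p from 0.415, edgeR), with a median of 0.17 against 0.03 over all genes. Against Dnmt3a, they ran from 0.18 (Ms4a3) to 0.52 (Prss57) in mice labelled Dnmt3a;Tnfr1KO, and from 0.35 (Ctsg) to 0.56 ± 0.31 (Elane) in Dnmt3a;Tnfr2KO, with edgeR adjusted p from 0.301 and from 0.216. Cebpe-positive cells were 4.39 ± 0.963% of kept cells in MxCre, 3.19 ± 2.35% in Dnmt3a, 7.74 ± 3.60% in mice labelled Dnmt3a;Tnfr1KO and 10.2 ± 4.40% in Dnmt3a;Tnfr2KO. The difference of the last from Dnmt3a had an exact permutation p of 0.0571 (adjusted p = 0.229 over 12 gates), and the part of these shares in the summed levels was not tested.

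Within Hlf-positive cells, the summed level of the 6 genes was lowest in MxCre and highest in Dnmt3a;Tnfr2KO on average, with no member called. The sum was 2173 ± 550 CPM in MxCre, 3121 ± 474 in Dnmt3a, 3834 ± 1572 in mice labelled Dnmt3a;Tnfr1KO and 4623 ± 1484 in Dnmt3a;Tnfr2KO. None of the 6 was called in any comparison by edgeR or DESeq2, beside 7.47%, 1.09%, 0.591% and 0.146% of 12344 genes in the 4 comparisons in the order above. At an unadjusted p under 0.05, edgeR gave 0, 1, 4 and 0 of the 6, beside 24.5%, 17.9%, 16.1% and 5.07% of all genes tested.

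Elane in Hlf-positive cells was at 169, 209, 278 and 181 CPM in the Dnmt3a mice and at 575, 265, 1006 and 529 in the Dnmt3a;Tnfr2KO mice, so that 3 of the latter lay above all Dnmt3a mice (log2 fold change 1.65 ± 0.44, edgeR adjusted p = 0.100). The 10% of cells with most Elane UMIs held 78.4 ± 4.11% of its thinned UMIs in Dnmt3a and 82.0 ± 7.22% in Dnmt3a;Tnfr2KO. In the MxCre mice it was at 211, 223 and 159 CPM, and in mice labelled Dnmt3a;Tnfr1KO at 600, 94.9 and 231. Prtn3 was at 926, 1098, 1101 and 1043 CPM in Dnmt3a and at 1320, 1165, 2208 and 1340 in Dnmt3a;Tnfr2KO, groups that did not overlap (log2 fold change 0.68 ± 0.21, edgeR adjusted p = 0.141). It was the 1 member of 6 with that separation, which 1.1% of 7829 genes of at least 10 CPM showed in this direction. Ms4a3 was at 62.2, 119, 208 and 133 CPM against 167, 144, 389 and 252, which overlapped (0.99 ± 0.38, edgeR adjusted p = 0.214).

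The calls changed with the filter and the libraries used, and the values with the gates. Without a filter on low counts, edgeR called Elane (log2 fold change 1.66, adjusted p = 0.00184) and Prtn3 (0.70, adjusted p = 0.0354), beside 1.31% of genes. With the gate minimums doubled the log2 fold change was 0.48 for Elane, 0.29 for Prtn3 and 0.45 for Ms4a3, and with gates set on thinned cells 0.14, 0.13 and 0.14. Without replicate 1 of the mice labelled Dnmt3a;Tnfr1KO, which enter the fit for the spread, Elane was called (adjusted p = 0.0468, edgeR) beside 0.483% of genes, and over all libraries left out in turn its value ran from 1.27 to 1.90. Some marker levels within Hlf-positive cells differed between the groups, with overlapping ranges: the monocyte list (0 of 5 markers at 0) summed to 48.4 to 95.2 CPM against 40.9 to 59.4 in Dnmt3a, Gfi1 was at 10.97 to 28.6 against 4.73 to 15.8, and Cebpe at 2.69 to 8.09 against 1.65 to 3.25. The megakaryocyte list was at 14.6 to 21.2 against 16.1 to 22.8, the dendritic list at 3.82 to 11.3 against 4.73 to 7.83, the secondary-granule list at 1.86 to 26.1 against 2.10 to 49.2, and the B-lineage list at 0 to 0.255 against 0.175 to 10.49. The median depth of Hlf-positive cells was lower in Dnmt3a;Tnfr2KO, 13486.5 UMIs against 23850.8. Gfi1 aside, the gates capped each of these marker lists, since a cell that met another gate was not counted as Hlf-positive. In the monocyte list, Ms4a6c was at 45.3 CPM over all Hlf-positive cells, and Ly86, Csf1r, Klf4 and Ccr2 were at 0.638 to 3.49. The part of the marker levels and of the depth in the result was not tested.

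For Dnmt3a against MxCre in Hlf-positive cells, 5 of the 6 genes were found in a larger share of thinned cells in each Dnmt3a mouse than in any MxCre mouse. Mpo was found in 51.1%, 41.7% and 26.3% of cells in MxCre and in 64.0%, 67.9%, 74.6% and 68.2% in Dnmt3a. Ctsg was found in 42.0%, 27.04% and 18.5% against 59.9%, 56.2%, 56.7% and 44.1%. Elane was found in 18.5%, 20.9% and 9.59% against 31.0%, 27.1%, 36.3% and 24.7%. Prtn3 was at 81.1 ± 3.37% against 90.0 ± 2.33% and Prss57 at 9.60 ± 1.45% against 12.9 ± 0.540%, while Ms4a3 overlapped (21.4 ± 8.50% against 27.7 ± 9.33%). For each of the 5 the exact permutation p was 0.0286, the smallest that 4 mice against 3 allow, and the adjusted p over 24 tests was 0.114. Of 7801 genes found in at least 5% of cells, 13.3% separated in this direction.

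Other measures moved with these shares. The erythroid-marker cells of the same mice had Mpo UMIs in 27.5 ± 2.64% of cells in Dnmt3a against 14.4 ± 4.72% in MxCre and Ctsg UMIs in 17.5 ± 5.11% against 7.51 ± 2.38%, both without overlap (exact permutation p = 0.0286 and 0.0571, adjusted p = 0.257 over 24 tests for each). They had Elane UMIs in 22.5 ± 4.72% against 12.8 ± 4.66%, with overlap. How many of all genes separated by share in erythroid-marker cells was not computed. By level in CPM, another measure, 3.25% of 7143 genes were higher without overlap there. Taking the erythroid-marker share of each mouse from its Hlf-positive share, an alternative chosen after seeing the data, left Mpo at 41.2% against 25.3% and Ctsg at 36.8% against 21.7% (exact permutation p = 0.0857 for each, adjusted p = 0.343), turned Prtn3 to 58.6% against 60.7%, and let all 6 overlap. For Prtn3 this took 31.4% against 20.4% from shares of 90.0% against 81.1%, which could rise little further. Shares of cells do not add, so the turn does not give the direction of the Prtn3 share itself. The median depth of Hlf-positive cells before thinning was 23850.8 UMIs in Dnmt3a and 14103 in MxCre, each as the median over mice. The megakaryocyte marker list in Hlf-positive cells summed to 16.1 to 22.8 CPM in Dnmt3a and 37.9 to 60.8 in MxCre, with at most 1 of its markers at 0 in a mouse. The erythroid list was at 3.59 to 7.80 against 7.75 to 12.8, the monocyte list at 40.9 to 59.4 against 40.1 to 45.5, and the dendritic list at 4.73 to 7.83 against 2.98 to 5.77. The gates capped each of these lists in every cell. The part of depth, of these lists and of the erythroid-marker cells in the shares was not tested.

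The summed level gave a like order with less separation for Mpo and Ctsg, and little difference for Elane. Mpo in Hlf-positive cells was at 762, 619 and 400 CPM in MxCre and at 607, 897, 1123 and 1008 in Dnmt3a (log2 fold change 0.54, edgeR adjusted p = 0.290), and Ctsg at 700, 443 and 291 against 709, 934, 886 and 647 (0.65, adjusted p = 0.229). The Elane level differed by 0.02 ± 0.47 on the log2 scale (edgeR adjusted p = 0.989), with 4.35 thinned UMIs per Elane-positive cell in MxCre against 3.15 in Dnmt3a. Prtn3 and Prss57 levels in CPM did not overlap between the groups, 2 of the 6 where 17.9% of 7829 genes showed the same, but Prtn3 did overlap in the scaling of edgeR. The calls changed with the minimum UMIs of the gates. With the minimums of all gates doubled, edgeR called 4 of the 6: Elane (1.61, adjusted p = 0.0152), Mpo (1.20, adjusted p = 0.00897), Prtn3 (0.87, adjusted p = 0.0177) and Ctsg (1.33, adjusted p = 0.0101), beside 11.4% of genes. With gates set on thinned cells it called 3, Prtn3 (0.98), Ctsg (1.28) and Prss57 (1.12), beside 10.1% of genes, and gave Elane 1.18 (adjusted p = 0.0987). In cells with both Hlf and Procr UMIs, Elane was at 47.2, 48.4 and 25.7 CPM in MxCre and at 77.3, 55.4 and 299 in the 3 Dnmt3a mice with enough cells (log2 fold change 1.67 ± 0.56, edgeR adjusted p = 0.130).

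Prss57 also separated the mice labelled Dnmt3a;Tnfr1KO from Dnmt3a in Hlf-positive cells, at 80.3, 42.9 and 53.3 CPM against 34.05, 40.8, 35.9 and 36.6 (log2 fold change 0.83 ± 0.33, edgeR adjusted p = 0.205), as did 2.87% of genes. It was found in 24.5%, 18.7% and 22.2% of thinned cells against 12.5%, 12.7%, 13.7% and 12.9% without overlap (exact permutation p = 0.0286, adjusted p = 0.114), as for 2.17% of genes. After taking off the erythroid-marker share it was at 19.1% against 9.96% (exact permutation p = 0.0286, adjusted p = 0.343). The other 5 members overlapped in level and in share before that step. After it Ctsg was at 55.001 ± 5.12% against 36.8 ± 6.47% (exact permutation p = 0.0571, adjusted p = 0.343). Before it Ctsg was at 64.0 ± 7.78% against 54.2 ± 6.94% (exact permutation p = 0.200, adjusted p = 0.480), and the erythroid-marker share taken off was 9.02% against 17.5%. Leaving out Dnmt3a;Tnfr2KO replicate 3, which enters this fit for the spread, edgeR called Prss57 here (adjusted p = 0.037), beside 1.3% of genes. With gates set on thinned cells its log2 fold change was 0.34 (edgeR adjusted p = 0.666). In cells with both Hlf and Procr UMIs it was found in 15.5 ± 5.97% of thinned cells against 12.5 ± 3.24%, with overlap (exact permutation p = 0.600, where 3 mice against 3 cannot go below 0.1). Between the 2 receptor knockout groups, the fold changes in Hlf-positive cells ran from -0.06 (Ctsg) to 0.92 (Elane) with an edgeR adjusted p of 1.00. After taking off the erythroid-marker share, Ctsg was at 39.6 ± 7.09% in Dnmt3a;Tnfr2KO against 55.001% in mice labelled Dnmt3a;Tnfr1KO, and Prtn3 at 57.2 ± 7.92% against 71.0 ± 3.62% (exact permutation p = 0.0571 for each, adjusted p = 0.343). Before that step Ctsg was at 60.4% against 64.0% and Prtn3 at 92.9% against 90.8%, both with overlap. The erythroid-marker shares taken off were 20.8% against 9.02% for Ctsg and 35.8% against 19.8% for Prtn3.

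**Figure D5:**
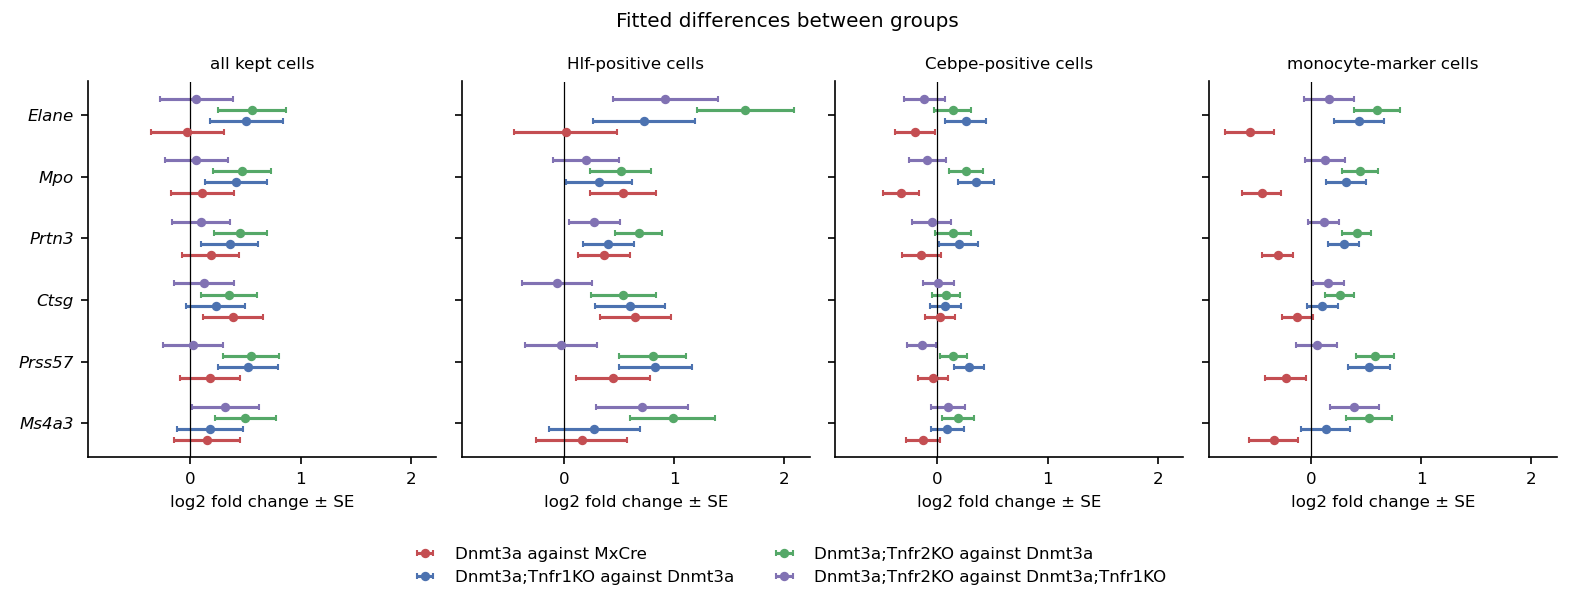
Log2 fold change (point) and standard error (bar) from edgeR for each gene and comparison, in all kept cells, Hlf-positive, Cebpe-positive and monocyte-marker cells. The fold changes in Cebpe-positive cells reach at most 0.35 in size, and the widest is Elane in Hlf-positive cells for Dnmt3a;Tnfr2KO against Dnmt3a, at 1.65.

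In Cebpe-positive cells, where the genes had their highest means, the groups were close. Elane was at 10900 ± 979 CPM in MxCre, 10568 ± 2708 in Dnmt3a, 11104 ± 519 in mice labelled Dnmt3a;Tnfr1KO and 10400 ± 1413 in Dnmt3a;Tnfr2KO. In CPM, the groups overlapped for every member in each of the 4 comparisons, while 18.4%, 3.64%, 1.64% and 2.99% of 7013 genes were higher without overlap. A further 4.09%, 19.3%, 13.6% and 1.2% were lower without overlap. Prss57 was at 405 to 416 CPM in mice labelled Dnmt3a;Tnfr1KO and at 347 to 411 in Dnmt3a;Tnfr2KO, and in the scaling of edgeR, unlike in CPM, these groups did not overlap (log2 fold change -0.14 ± 0.13). None of the 6 was called in any comparison by edgeR or DESeq2, beside 2.17%, 2.37%, 1.94% and 0.204% of 10771 genes, and 0, 2, 0 and 0 of the 6 had an unadjusted p under 0.05, beside 17.5%, 19.3%, 18.5% and 3.31% of genes. The largest fold changes were those of Mpo, -0.33 ± 0.16 for Dnmt3a against MxCre and 0.35 ± 0.16 for Dnmt3a;Tnfr1KO against Dnmt3a (edgeR adjusted p = 0.312 and 0.248).

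In monocyte-marker cells, all 6 genes had a negative fold change in Dnmt3a against MxCre and a positive one in both receptor knockout groups against Dnmt3a, comparisons that share the Dnmt3a mice. None was called by edgeR, beside 0.394%, 1.4%, 2.49% and 0.222% of 12183 genes, and 3, 2, 5 and 0 of the 6 had an unadjusted p under 0.05, beside 18.6%, 19.7%, 24.1% and 2.62% of genes. Elane was at 3877, 5011 and 3236 CPM in MxCre and at 2347, 2640, 3682 and 3620 in Dnmt3a (log2 fold change -0.56 ± 0.23, edgeR adjusted p = 0.204). In Dnmt3a;Tnfr2KO it was at 4188, 2873, 3677 and 5654 (0.60 ± 0.21 against Dnmt3a, adjusted p = 0.111, edgeR). Each of these pairs overlapped.

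Prss57 in monocyte-marker cells was at 75.8, 104, 110 and 91.4 CPM in Dnmt3a, at 96.3, 97.1, 165 and 146 in Dnmt3a;Tnfr2KO (0.58 ± 0.17, edgeR adjusted p = 0.0761) and at 130, 119 and 117 in mice labelled Dnmt3a;Tnfr1KO (0.53 ± 0.19, edgeR adjusted p = 0.145). The last group did not overlap with Dnmt3a, as for 3.24% of 7165 genes in that direction. For Dnmt3a;Tnfr2KO against Dnmt3a, DESeq2 called 3 of the 6, Elane (0.61, adjusted p = 0.0431), Prtn3 (0.42, adjusted p = 0.0287) and Prss57 (0.59, adjusted p = 0.0207), beside 7.61% of genes. Without Dnmt3a replicate 3, edgeR called 4 of the 6, Mpo, Prtn3, Prss57 and Ms4a3 (adjusted p from 0.0311 to 0.0494), beside 9.2% of genes, and without a filter on low counts it called Prss57 alone (adjusted p = 0.0431), beside 2.75% of genes.

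Secondary-granule, basophil-mast-marker and erythroid-marker cells gave no call among the 6 with edgeR on all 4 groups or with DESeq2, after the filter on low counts. With only the Dnmt3a and MxCre mice in the fit, edgeR called 2 in secondary-granule cells, Mpo (log2 fold change -1.498, adjusted p = 0.0382) and Ctsg (-2.01, adjusted p = 0.00726), beside 0.633% of genes. Without the filter, edgeR on all 4 groups called 3, 2 and 5 of the 6 in the first 3 comparisons in secondary-granule cells, beside 0.479%, 0.646% and 1.03% of genes. It then called 0, 1 and 2 in basophil-mast-marker cells, beside 1.09%, 1.1% and 1.82%. In secondary-granule cells the fold changes spanned -1.996 to 2.53 (edgeR adjusted p from 0.283), with 2 to 3 mice a group and a share of called genes of 0% or 0.0624%. Ctsg was at 1125, 550 and 314 CPM there in MxCre, at 204 and 175 in Dnmt3a and at 386, 447 and 2251 in Dnmt3a;Tnfr2KO, so that the 2 Dnmt3a mice were below both of these groups without overlap. Prss57, at 143, 95.3 and 77.3 CPM in MxCre against 74.2 and 58.5 in Dnmt3a, also did not overlap. Of 5903 genes, 6.74% were lower without overlap in Dnmt3a than in MxCre and 3.86% higher in Dnmt3a;Tnfr2KO than in Dnmt3a. The Mpo groups overlapped in CPM in both comparisons but not in the scaling of edgeR. In basophil-mast-marker cells the fold changes ran from -0.66 to 1.11 (edgeR adjusted p from 0.290), beside 0.0104%, 0.124%, 0.0829% and 0.0725% of genes called in the 4 comparisons. Prss57 there was at 166, 74.5 and 80.8 CPM in mice labelled Dnmt3a;Tnfr1KO against 42.8, 73.9 and 58.6 in Dnmt3a, without overlap, as for 3.69% of 7556 genes in that direction (log2 fold change 0.98 ± 0.32). In Dnmt3a;Tnfr2KO it was at 122, 71.9, 117 and 83.7, which overlapped with Dnmt3a in CPM but not in the scaling of edgeR (0.82 ± 0.29). In erythroid-marker cells, the population taken as background, the fold changes ran from -1.21 to 1.59 (edgeR adjusted p from 0.305), beside 0%, 0.0279%, 0.0744% and 0.0372%. Mpo and Ctsg levels there were higher in Dnmt3a than in MxCre without overlap, 2 of the 6 where 3.25% of 7143 genes showed the same. At an unadjusted p under 0.05, edgeR gave 1, 1, 4 and 0 of the 6 in secondary-granule cells, beside 6.15%, 8.41%, 12.8% and 3.81% of genes. It gave 0, 1, 1 and 0 in basophil-mast-marker cells, beside 11.5%, 9.44%, 8.67% and 3.61%, and 4, 1, 0 and 2 in erythroid-marker cells, beside 15.4%, 11.2%, 15.7% and 1.19%. Gfi1-positive, megakaryocyte-marker and B-lineage-marker cells were not tested between groups. Cells of several gates, 28.8% of kept cells and the holders of most of the members' UMIs, are given no test between groups here either. In cells of no gate no member passed (edgeR adjusted p from 0.332). The median log2 fold changes there were 0.62, 0.52, 0.43 and -0.19, against 0.03, -0.04, -0.02 and 0.005 over all genes.

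A list of 33 genes was set beside the 6: genes that activate, package, sort or inhibit the granule enzymes, other granule contents and the transcription factors of the lineage. None passed in all kept cells in any comparison, of 33 tested, with medians of 0.24, 0.13, 0.13 and 0.04 on the log2 scale in the 4 comparisons against 0.03, -0.05, -0.03 and 0.02 over all genes. In Hlf-positive cells, 2 of 31 tested were called for Dnmt3a against MxCre, beside 7.47% of all genes. Irf8, a transcription factor of monocytes and dendritic cells, was higher at 23.1 ± 2.37 CPM against 9.79 ± 2.35 (log2 fold change 1.24 ± 0.22, edgeR adjusted p = 0.00543). Cd63, a membrane protein of the primary granule, was lower at 187 ± 43.0 against 313 ± 14.4 (-0.74 ± 0.14, edgeR adjusted p = 0.00783). None of the 31 was called there in the other 3 comparisons.

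In Cebpe-positive cells, Lyst, a regulator of granule size, was higher in Dnmt3a than in MxCre, at 62.6 ± 16.5 CPM against 37.2 ± 5.64 (0.71 ± 0.18, edgeR adjusted p = 0.0443). It was lower than in Dnmt3a in mice labelled Dnmt3a;Tnfr1KO, at 36.2 ± 5.43, and in Dnmt3a;Tnfr2KO, at 35.2 ± 3.61 (edgeR adjusted p = 0.0305 and 0.0168). G6pc3, a glucose phosphatase needed for neutrophil survival, went the other way, at 67.2 ± 9.39 CPM in Dnmt3a against 93.6 ± 3.28 in MxCre and 93.3 ± 5.33 in mice labelled Dnmt3a;Tnfr1KO (edgeR adjusted p = 0.0408 and 0.0332). These were 2, 2 and 1 of 31 genes tested, beside 2.17%, 2.37% and 1.94% of all genes. In monocyte-marker cells, 1 of 31 was called beside 2.49% of all genes for Dnmt3a;Tnfr2KO against Dnmt3a: Gfi1, at 10.7 ± 1.37 CPM in Dnmt3a;Tnfr2KO against 6.42 ± 1.60 in Dnmt3a (0.73 ± 0.17, edgeR adjusted p = 0.0361). Gfi1 is itself a gate gene, and cells with monocyte markers and 2 or more Gfi1 UMIs were counted under several gates. Its level in monocyte-marker cells is therefore cut by the gates. A second list of 12 later granule genes (Ltf, Camp, Ngp, S100a8 and others) had no call in all kept cells, with medians of -0.13, -0.62, -1.11 and -0.46.

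Over 111 sums of 1 library and 1 population, the 6 genes followed each other with a Pearson r of 0.929 (Prss57 and Ms4a3) to 0.995 (Mpo and Ctsg) on log2(CPM + 1). Sums of a library share its free RNA and depth, so these are descriptions. Among 7614 other genes of at least 10 CPM, the 3 most alike to each member were drawn from 7 genes: Gstm1, Dmkn, Alas1, Hsd17b1, Adssl1, Chdh and Anxa3, with r from 0.927 to 0.965. Gstm1, a glutathione transferase, was among the 3 for all 6 members and the first for Mpo, Prtn3, Prss57 and Ms4a3. Alas1, the first enzyme of heme synthesis, was among the 3 for Elane and Prss57.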

How the data were processed

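The deposited matrices hold whole-number UMI counts per gene and barcode, which the authors made from 10x 3' v3.1 libraries (the file headers name Cell Ranger 6.0.0), with bcl2fastq 2.20.0.422 and the mouse build mm10 (GRCm38) named in the submitters' processing notes. The annotation release is not given in the sources used here. Barcodes under 1000 UMIs or 500 genes, or with 10% or more mitochondrial UMIs, were left out, and simulated-neighbour doublets were removed at 0.8% per 1000 cells (31 to 480 per library).

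Cells were gated by UMIs of Hlf (1), Gfi1 (2), Cebpe (2), Ltf, Camp and Ngp (10), 5 monocyte (5), 5 megakaryocyte (5) and 5 erythroid (3) markers (1 of which is not reported here), and basophil-mast, B-lineage, dendritic, eosinophil and T/NK markers (3). A cell in exactly 1 gate was assigned to it, with the granulocyte stages taken as ordered and Hlf before Gfi1. Populations of at least 20 cells per library were summed. Dendritic-marker (50 cells), eosinophil-marker (3) and T/NK-marker (172) cells were too few to compare. Totals ran from 62416022 to 162869740 UMIs per library.

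Summed counts were tested with edgeR 4.0.16 (R 4.3.3, TMM, filterByExpr, quasi-likelihood, all 4 groups in 1 fit, Benjamini-Hochberg over all genes tested in a comparison), called at an adjusted p under 0.05. DESeq2 1.42.0 was an alternative. Levels are CPM of the population's own total, compared within mice as log2(CPM + 1) by exact sign-flip tests. Shares were compared between groups by exact permutation tests, two-sided. Scripts were tested on simulated data. Python used numpy 2.4.6, pandas 2.3.3, scipy 1.17.1, scikit-learn 1.9.0 and matplotlib 3.10.9.

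The alternatives were other size factors, no low-count filter, only the 2 groups compared, a replicate block, doublets kept, doubled gate minimums, gates on thinned cells, 2500 UMIs, a pseudocount of 10 CPM and each library left out. The alternatives without Hdc, with a Procr UMI and less the erythroid-marker share were chosen after seeing the data. The members and lists were chosen with earlier results of these data known. Named genes are the 6 members, the 3 most alike to each by Pearson r, the targeted genes, and up to 3 called genes of the pathway list per comparison. No sequence was printed, since no table of sequences was used here.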

Additional observations from a re-analysis of the deposited data

Results flagged for a closer look

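Dnmt3a;Tnfr2KO replicate 3 stood apart from the other 3 mice of its group in Hlf-positive cells in 4 values, as the highest each time. Its Prtn3 level was 2208 CPM, with the nearest mouse at 1340, and its Prss57 level 118 CPM, with the nearest at 41.5. Ctsg was found in 74.95% of its thinned cells against 56.1% in the nearest mouse, and Prss57 in 30.6% against 13.9%. In each case the gap, as a part of the range of the group, was above the 95% critical value of Dixon's test for 4 samples (0.833, 0.940, 0.936 and 0.937 of the range). These were 4 of 78 groups of 4 values examined, and chance alone flags about 1 in 20 such groups. The Hlf-positive cells of this mouse also had the highest Gfi1 (28.6 CPM), Cebpe (8.09) and monocyte-list (95.2) levels of its group, and the part of these in the 4 values was not tested.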

How the results depend on the processing

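The higher or lower level of each member between populations kept its direction and call in all 588 fits with a library left out and in 203 of 210 other settings. The exceptions were Gfi1-positive against Cebpe-positive cells with gates on thinned cells (log2 difference 0.083 for Elane, 0.0066 Mpo, 0.14 Prtn3, 0.10 Ctsg, 0.070 Prss57 and 0.058 Ms4a3, all but Mpo past the threshold in this other direction) and Ctsg with doubled minimums (-0.058, same direction, no longer past the threshold). The cause was not tested.

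Call counts moved from 0 with doubled minimums (4 in Hlf-positive cells, Dnmt3a against MxCre) and with gates on thinned cells (3, same comparison). DESeq2 gave 3 in monocyte-marker cells for Dnmt3a;Tnfr2KO against Dnmt3a. Without the low-count filter, the same comparison gave 2 in Hlf-positive, 1 in monocyte-marker, 2 in basophil-mast-marker and 5 in secondary-granule cells (beside 1.31%, 2.75%, 1.82% and 1.03% of all genes), Dnmt3a;Tnfr1KO against Dnmt3a gave 1 and 2 in the last 2 populations (beside 1.1% and 0.646%), and Dnmt3a against MxCre gave 3 in secondary-granule cells (beside 0.479%). With the filter kept and only those 2 groups fitted, it gave 2 (beside 0.633%). With a library left out, counts ran from 0 to 1 in Hlf-positive cells for each receptor knockout against Dnmt3a and from 0 to 4 in monocyte-marker cells for Dnmt3a;Tnfr2KO against Dnmt3a.

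Fold changes that changed sign were uncalled before and after. Replicate numbers did not pair the mice (19 same-number pairs, r -0.338 to 0.261, 5 above 0.1). With the replicate block, Ms4a3 in all cells was -0.0023 for Dnmt3a against MxCre, and between the receptor knockouts Elane was -0.051, Mpo -0.036 and Prss57 -0.067 in all cells and Ctsg 0.066 in Hlf-positive cells. The block changed no call of a member in all cells or Hlf-positive cells. With only the compared groups, Prss57 between the knockouts in all cells was -0.0013 and Elane in Hlf-positive cells for Dnmt3a against MxCre -0.00039, as with DESeq2 (-0.00015). In Hlf-positive cells, gates on thinned cells gave Ms4a3 -0.19 for Dnmt3a;Tnfr1KO against Dnmt3a, Mpo -0.0018 and Ctsg -0.037 for Dnmt3a;Tnfr2KO against Dnmt3a and Mpo -0.050 between the knockouts, where doubled minimums gave Mpo -0.11 and doublets kept gave Prss57 0.0012.

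With a library left out, all-cell fold changes for Dnmt3a against MxCre ran from -0.28 to 0.22 for Elane, -0.10 to 0.27 for Mpo and -0.072 to 0.33 for Ms4a3. For Dnmt3a;Tnfr1KO against Dnmt3a they ran from -0.067 to 0.43 for Ctsg and -0.024 to 0.41 for Ms4a3. Between the knockouts they ran from -0.17 to 0.39 for Elane, -0.14 to 0.32 for Mpo, -0.054 to 0.37 for Prtn3, -0.073 to 0.42 for Ctsg and -0.15 to 0.29 for Prss57. In Hlf-positive cells they ran from -0.18 to 0.14 for Elane and -0.19 to 0.55 for Ms4a3 (Dnmt3a against MxCre), from -0.25 to 1.16 for Elane, -0.087 to 0.62 for Mpo, 0.51 to 1.03 for Prss57 and -0.16 to 0.63 for Ms4a3 (Dnmt3a;Tnfr1KO against Dnmt3a), from 1.27 to 1.90 for Elane (Dnmt3a;Tnfr2KO against Dnmt3a), and from -0.10 to 0.60 for Mpo, -0.35 to 0.26 for Ctsg and -0.58 to 0.30 for Prss57 (between the knockouts).

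Shares of Hlf-positive cells, in percentage points, changed sign or size less the erythroid-marker share: Prtn3 -2.07 (Dnmt3a against MxCre), Elane 4.55 and Mpo 4.59 (Dnmt3a;Tnfr1KO against Dnmt3a), Mpo -0.265 and Prtn3 -1.43 (Dnmt3a;Tnfr2KO against Dnmt3a), Mpo -4.86 and Prtn3 -13.8 (between the knockouts). Shares of cells do not add, so a sign after this step is not the direction of the share itself. For Dnmt3a;Tnfr1KO against Dnmt3a, Ms4a3 was -0.258 with doubled minimums and -0.149 without Hdc. For Dnmt3a;Tnfr2KO against Dnmt3a, doubled minimums gave Mpo -1.60 and Ctsg -0.572, and a Procr UMI gave Ctsg -2.27. Between the knockouts a Procr UMI gave Ms4a3 -2.77. With a library left out, Prtn3 ran from -0.293 to 1.67 and Ms4a3 from -1.77 to 6.37 for Dnmt3a;Tnfr1KO against Dnmt3a. Of kept cells, the Cebpe-positive share differed by 0.0506 for Dnmt3a against MxCre with gates on thinned cells. For Dnmt3a;Tnfr2KO against Dnmt3a, doubled minimums and thinned gates gave -3.47 and -1.16 for the Hlf-positive share (-2.31 to 3.33 with a library left out) and -1.27 and -0.541 for the monocyte-marker share.

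Of 10061 Hlf-positive cells, 3524 had 1 Hlf UMI. With 3 or 4 mice a group, a difference that did not pass is not shown to be absent.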

Other observations

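Barcodes under 1000 UMIs, which entered no comparison, held the 6 genes in another balance than the kept cells. Mpo made up 34.1% and Elane 20.8% of the members' UMIs there (n = 14 libraries), against 23.3% and 25.2% in all kept cells. Mean levels were 2814 CPM for Mpo, 1897 for Prtn3, 1856 for Elane, 1681 for Ctsg, 345 for Ms4a3 and 73.2 for Prss57.

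After thinning, Ms4a3 was found in 22.3% of megakaryocyte-marker cells (11 mice), against 29.9% of the Hlf-positive cells of the same mice, and was higher in the latter in 10 of 11 mice. Prss57 was found in 0.868% of megakaryocyte-marker cells. Among cells with both Hlf and Procr UMIs, the Ms4a3 share was 19.1% in those 11 mice and above the megakaryocyte-marker share in 3 of them. In B-lineage-marker cells of 4 mice, Elane was found in 25.5% of cells, against 25.8% of Hlf-positive cells, which were higher in 2 of 4.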
